A study of Mus musculus with 9 samples.

Results

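This account follows 9 genes of cytokine signal transduction in mouse splenic dendritic cells: 6 STAT transcription factor genes (Stat2, Stat3, Stat4, Stat5a, Stat5b and Stat6) and 3 feedback inhibitor genes of the SOCS family (Socs1, Socs3 and Cish). They were taken by gene symbol from the array's annotation, 9 of 19938 genes, and were chosen with earlier results of these data known. The transcript cluster (the probes of 1 gene locus) with the highest mean was read for each gene that had several. RNA of conventional dendritic cells (cDC) sorted from spleens of 129SvEv/Tac mice was hybridised to 9 Affymetrix arrays, to find the expression pattern that BATF proteins control in these cells. The groups were activated cDC2 of Batf-/- Batf3-/- double knockout mice (DKO, 2 arrays), activated WT cDC2 (2 arrays), resting DKO cDC2 (2 arrays), resting WT cDC1 (1 array) and resting WT cDC2 (2 arrays). Activation was IFN-gamma at 100 ng/ml for 1 h, followed by E. coli LPS at 1 µg/ml for another 3 h. The labels name no allele limited to one cell type, so the comparison with WT holds development and activation together. The labels give no age and do not say whether replicates were different mice. The p-values thus measure only the spread between these arrays, which may be technical. Whether resting cells were cultured is not stated either. In activated against resting cells, an effect of IFN-gamma plus LPS and one of culture therefore cannot be told apart.

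Cytokine receptors carry JAK kinases, which phosphorylate STAT proteins in the cytoplasm after a ligand binds. Phosphorylated STATs pair up, enter the nucleus and bind DNA of target genes, among them SOCS genes, whose products block the receptor or its kinase in a negative feedback loop. In dendritic cells the STATs serve interferons, IL-6, IL-10, IL-12, GM-CSF and IL-4, and Socs1 restrains the response to IFN-gamma and LPS. BATF and BATF3 are AP-1 family factors that act with IRF4 or IRF8 in dendritic cells and lymphocytes.

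The promoters of 5 of these genes are shown because their RNA is the one the results turn on: the 3 feedback genes, Stat2 and Stat4. RefSeq promoters of build GRCm38.p6 matched 9 of 9 genes, with 12 start sites in all, and each line holds the 250 bases before the start, 5′ to 3′ in the gene's direction. Capitals mark matches, on either strand, to 3 motifs: TTCNNNGAA (bound by most STAT dimers), the same ends with 4 bases of any kind between them (a spacing that STAT6 prefers), or the interferon response motif, GAAA and GAAA with 2 bases of any kind between them (bound by STAT2-containing complexes and IRFs). The windows are Socs1 at chr16:10785537-10785786 on the minus strand, Socs3 at chr11:117969367-117969616 on the minus strand, Cish at chr9:107296409-107296658 on the plus strand, Stat2 at chr10:128270248-128270497 on the plus strand and the second start of Stat4 at chr1:52007990-52008239 on the plus strand.
Socs1: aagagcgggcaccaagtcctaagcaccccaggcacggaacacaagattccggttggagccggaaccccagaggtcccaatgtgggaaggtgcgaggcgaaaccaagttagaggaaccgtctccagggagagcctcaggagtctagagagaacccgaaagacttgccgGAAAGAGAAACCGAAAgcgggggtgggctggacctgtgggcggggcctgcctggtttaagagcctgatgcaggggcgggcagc
Socs3: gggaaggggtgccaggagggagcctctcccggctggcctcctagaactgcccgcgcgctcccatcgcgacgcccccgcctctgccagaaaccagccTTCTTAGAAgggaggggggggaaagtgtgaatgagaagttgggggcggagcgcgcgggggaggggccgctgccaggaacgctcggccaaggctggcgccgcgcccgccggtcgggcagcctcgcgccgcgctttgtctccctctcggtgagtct
Cish: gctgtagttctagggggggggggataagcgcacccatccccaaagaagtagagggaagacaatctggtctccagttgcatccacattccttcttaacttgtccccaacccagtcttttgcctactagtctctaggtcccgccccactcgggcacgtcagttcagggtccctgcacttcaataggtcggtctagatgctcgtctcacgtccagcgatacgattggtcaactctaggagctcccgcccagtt
Stat2: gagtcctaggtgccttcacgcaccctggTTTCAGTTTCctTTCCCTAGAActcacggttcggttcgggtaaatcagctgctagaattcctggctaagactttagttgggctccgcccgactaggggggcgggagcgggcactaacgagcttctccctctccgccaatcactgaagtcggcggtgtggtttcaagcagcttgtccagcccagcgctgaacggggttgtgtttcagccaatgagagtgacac
Stat4: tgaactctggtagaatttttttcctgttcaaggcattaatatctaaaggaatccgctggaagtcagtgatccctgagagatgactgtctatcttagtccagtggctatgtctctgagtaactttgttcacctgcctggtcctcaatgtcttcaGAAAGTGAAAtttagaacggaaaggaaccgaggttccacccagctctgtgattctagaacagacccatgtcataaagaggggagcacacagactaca

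In the Socs1 window, 2 overlapping matches to the interferon response motif lay 83 to 74 and 77 to 68 bases before the start. Socs3 held TTCTTAGAA 154 to 146 bases before its start. Stat2 held TTTCAGTTTC, a reverse-strand match to the interferon response motif, 222 to 213 bases before its start. It also held TTCCCTAGAA, with the STAT6 spacing, 210 to 201 bases before its start. The second Stat4 start had GAAAGTGAAA 97 to 88 bases upstream, while its first start, which is not shown, and the Cish window held no match. Over the 12 windows, 3 held the interferon response motif, 1 held TTCNNNGAA and 1 held the STAT6 spacing. Among 32851 promoter windows of the same length the shares were 2.98% for the interferon response motif, 7.02% for TTCNNNGAA and 5.85% for the STAT6 spacing. Letters bound by AP-1 (TGANTCA), by AP-1 with an IRF (GAAA directly before TGANTCA) and by NF-kappaB (GGGAC directly before TTTCC) were in 0 of the 12 windows, and in 6.75%, 0.100% and 0.140% of all windows. These matches describe the letters in the windows and say nothing of binding.

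The arrays went with their labels. Batf read 5.31 to 5.44 on the 4 DKO arrays and 6.74 to 9.07 on the 4 WT cDC2 arrays (log2 intensity), and Batf3 read 6.43 to 7.17 on DKO and 7.58 to 9.92 on WT cDC2 arrays. The cDC1 marker list averaged 8.50 on the cDC1 array and 5.97 to 6.43 on the cDC2 arrays, and the cDC2 list averaged 5.59 on the cDC1 array and 6.65 to 7.17 on the cDC2 arrays. Lists of T, NK, B and erythroid markers averaged at most 5.52 on any array, under the brightness threshold of 5.94 used for testing. Single genes were brighter: 1 T, 2 NK, 1 B and 1 erythroid marker passed the brightness filter. On the linear scale the B list summed to 936 on resting DKO replicate 1 and 829 on resting WT cDC2 replicate 1, each with 6 of its 7 genes under the threshold. Its sum on the cDC1 array was 280. On the cDC2 arrays plasmacytoid dendritic cell markers averaged 7.08 to 7.68, macrophage markers 6.32 to 6.88, monocyte markers 6.29 to 7.25 and neutrophil markers 5.65 to 5.92. On the cDC1 array these lists averaged 6.78, 6.73, 6.84 and 6.07. The cDC1 array had the highest linear sums of all arrays for macrophage (2092), monocyte (2915) and neutrophil (919) markers. The part of such cells in the cDC1 values was not tested. One array stood apart: resting WT cDC2 replicate 2 read 11.10 as the mean of 23 interferon-stimulated genes, against 9.79 on replicate 1 of its group. Results that rest on it are given with and without it, or beside the values of each replicate. These are bulk samples, in which fewer cells of a type and less RNA per cell cannot be told apart.

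**Figure D1:**
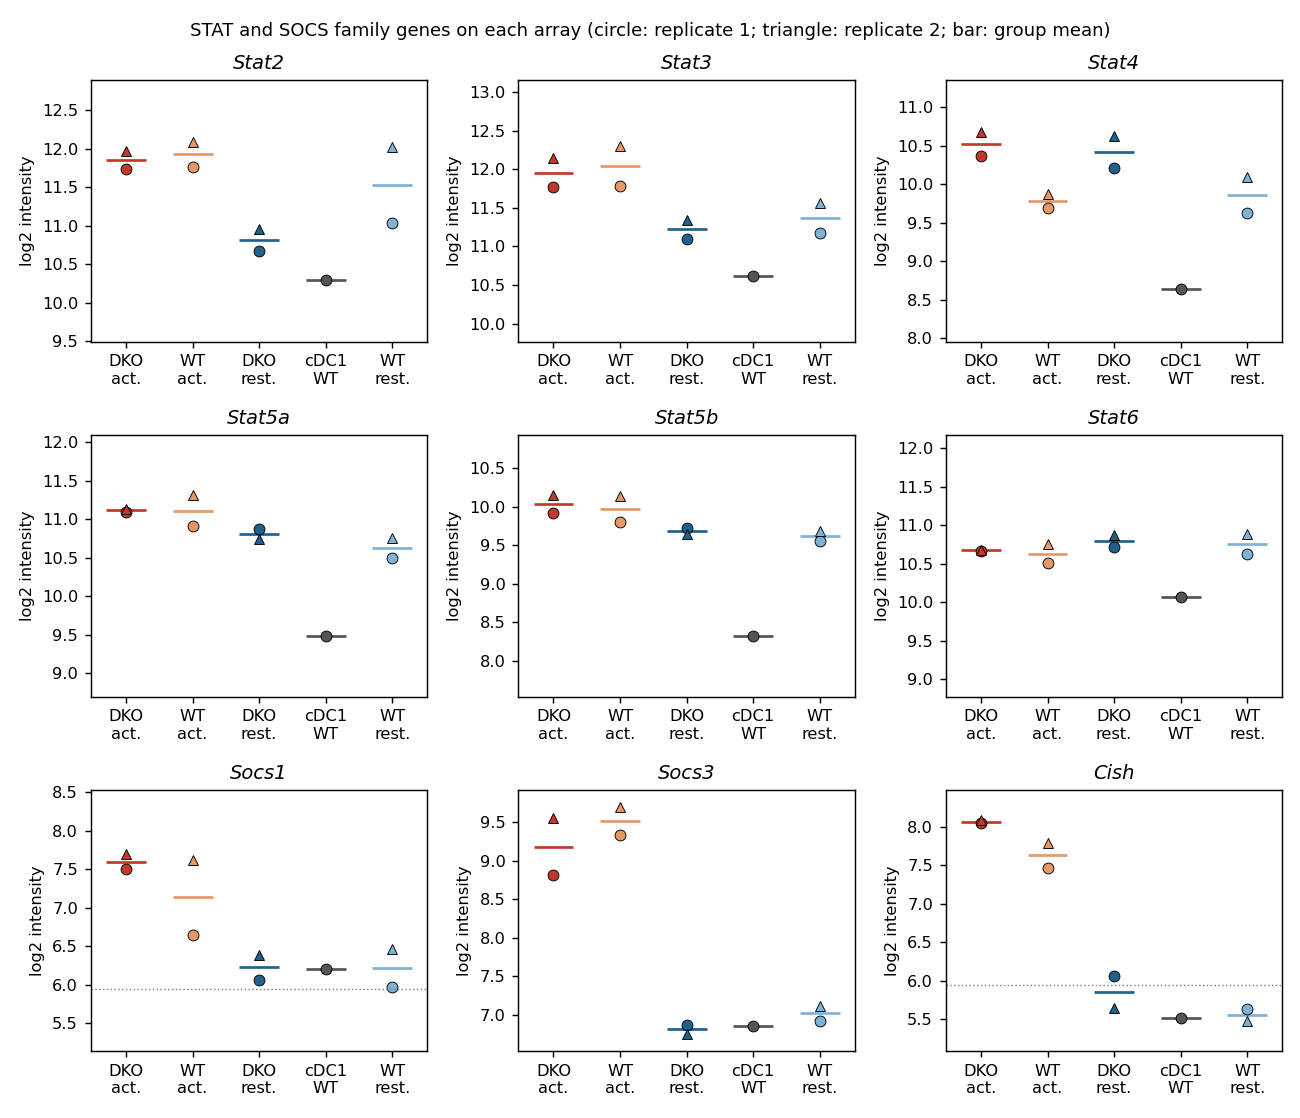
Log2 intensity of each of the 9 genes on every array, with circles for replicate 1, triangles for replicate 2, bars for group means and, in the Socs1 and Cish panels, a dotted line at the brightness threshold of 5.94. The vertical axes differ between genes, and the feedback genes are high on the 4 activated arrays while the STAT genes are low on the cDC1 array.

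Activated cells held more RNA of the feedback genes than resting cells. In DKO cDC2, 3 of the 9 genes rose and 0 fell, where 13.7% of all 10728 genes tested changed and 5.82% rose, and in WT cDC2, 2 rose and 0 fell, where 10.5% of all genes changed and 3.97% rose (limma, Benjamini-Hochberg adjusted p below 0.05). The shares over all genes rested on few arrays, since without resting DKO replicate 2 the DKO share was 2.02% and without activated WT replicate 2 the WT share was 0.567%. The genes that rose were Cish, Socs3 and, in DKO cells, Socs1. The median log2 difference of the 9 genes was 0.74 in DKO and 0.48 in WT cells, beside -0.09 and -0.07 over all genes tested.

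Cish encodes an inhibitor induced by STAT5 that dampens GM-CSF and IL-2 family signals. It read 8.04 and 8.08 (log2 intensity, replicates 1 and 2) in activated DKO cells, against 6.06 and 5.65 in resting DKO cells. In activated WT cells it read 7.46 and 7.79, against 5.63 and 5.48 in resting WT cells. All activated arrays lay above all resting arrays. Within a genotype, 21.0% of all genes in DKO and 19.9% in WT cells separated in that direction. For Cish 3 of the 4 resting cDC2 arrays were under the brightness threshold, so it passed the filter on dim genes only through its activated arrays. The log2 difference was 2.21 ± 0.17 (SE) in DKO cells, 4.62-fold (limma adjusted p = 0.00259), and 2.07 ± 0.17 in WT cells, 4.20-fold (adjusted p = 0.00384). Leaving out any 1 cDC2 array gave 2.0 to 2.41 in DKO and 1.91 to 2.23 in WT cells, all past the threshold, and both calls were also made with no brightness filter.

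Socs3 encodes the inhibitor that binds gp130 and limits IL-6 signalling through STAT3. Its log2 intensity was 8.82 and 9.55 in activated DKO cells, against 6.87 and 6.75 in resting DKO cells. Activated WT cells had 9.34 and 9.70, against 6.92 and 7.12 in resting WT cells. The groups did not overlap in either genotype, a separation in that direction shared by 21.0% of all genes in DKO and 19.9% in WT cells. Replicate 1 was the lower of the activated arrays in each. Socs3 rose by 2.37 ± 0.25 in DKO cells, 5.18-fold (limma adjusted p = 0.00481), and by 2.50 ± 0.25 in WT cells, 5.66-fold (adjusted p = 0.0068). Without activated WT replicate 2 the WT difference was 2.32 with adjusted p = 0.0574, so that call rested on this array. A second, dimmer Socs3 cluster read 6.96 and 6.76 in activated DKO cells, against 6.38 and 6.34 in resting DKO cells. It read 7.07 and 6.91 in activated WT cells, against 6.23 and 6.22 in resting WT cells, so both clusters were higher on every activated array than on any resting cDC2 array.

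Socs1 encodes the inhibitor of JAK kinases downstream of the interferon receptors. Its log2 intensity was 7.50 and 7.70 in activated DKO cells, against 6.06 and 6.39 in resting DKO cells. In activated WT cells Socs1 read 6.65 and 7.62, against 5.97 and 6.46 in resting WT cells. The activated and resting arrays did not overlap in either genotype, which held in that direction for 21.0% of all genes in DKO and 19.9% in WT cells. Activated WT replicate 1, however, lay closer to the resting WT arrays than to activated WT replicate 2. The difference was 1.38 ± 0.33 in DKO cells, 2.60-fold (limma adjusted p = 0.0445), and 0.92 ± 0.33 in WT cells, which did not pass (adjusted p = 0.126). The DKO call ended when any 1 DKO array was left out (1.21 to 1.54, adjusted p = 0.13 to 0.17), without resting WT replicate 1 (adjusted p = 0.0555) or replicate 2 (adjusted p = 0.0559), and with no brightness filter (adjusted p = 0.0732).

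The 6 STAT genes had smaller differences, and 0 of them passed the threshold in the fit of group means. Stat3, which carries IL-6 and IL-10 signals, read 11.77 and 12.15 in activated DKO cells, against 11.10 and 11.35 in resting DKO cells. In activated WT cells it read 11.78 and 12.31, against 11.18 and 11.56 in resting WT cells. The activated arrays were above the resting ones in both genotypes, as for 21.0% of all genes in DKO and 19.9% in WT cells. The Stat3 differences were 0.74 ± 0.24 in DKO (limma adjusted p = 0.0875) and 0.68 ± 0.24 in WT cells (adjusted p = 0.115). Stat5a and Stat5b encode closely related factors that act downstream of GM-CSF. Stat5a read 11.10 and 11.14 in activated DKO cells, against 10.88 and 10.75 in resting DKO cells, a difference of 0.30 ± 0.16 (adjusted p = 0.248). In WT cells Stat5a read 10.92 and 11.31 after activation, against 10.50 and 10.76 at rest, a difference of 0.48 ± 0.16 (adjusted p = 0.101). Stat5b read 9.92 and 10.15 in activated DKO cells, against 9.72 and 9.65 in resting DKO cells (0.35 ± 0.14, adjusted p = 0.156). In WT cells Stat5b read 9.80 and 10.14 after activation, against 9.56 and 9.68 at rest (0.35 ± 0.14, adjusted p = 0.163). Both Stat5 genes were thus higher on all activated arrays than on the resting arrays of their genotype, a separation shared by 21.0% of all genes in DKO and 19.9% in WT cells. Stat6, the factor of IL-4 and IL-13 signals, and Stat4, the factor of IL-12 signals, had differences near 0: -0.12 ± 0.14 for Stat6 in each genotype, and 0.10 ± 0.22 in DKO and -0.08 ± 0.22 in WT cells for Stat4.

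Stat2 joins IRF9 in the complex that carries type I interferon signals, and it was the STAT gene whose values moved with a single array. In activated DKO cells it read 11.73 and 11.97, against 10.67 and 10.96 in resting DKO cells. In activated WT cells it read 11.76 and 12.09, against 11.03 and 12.02 in resting WT cells. The DKO groups did not overlap, as for 21.0% of all genes in that direction, while resting WT replicate 2 reached the level of the activated arrays. The difference was 1.04 ± 0.32 in DKO (limma adjusted p = 0.0832) and 0.40 ± 0.32 in WT cells (adjusted p = 0.45). Without resting WT replicate 2 the WT difference was 0.90 (adjusted p = 0.0773), and without replicate 1 of that group it was -0.10. Leaving out either resting WT array also put the DKO difference past the threshold (adjusted p = 0.0247 without replicate 1 and 0.0248 without replicate 2).

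The list of 23 interferon-stimulated genes moved with Stat2. Its mean log2 intensity was 11.38 and 11.20 in activated DKO and 11.33 and 11.64 in activated WT cells. At rest it was 9.25 and 9.48 in DKO cells, 8.87 in cDC1, and 9.79 and 11.10 in WT cDC2. Summed on the linear scale, the list gave 67564 to 80419 in activated DKO, 79658 to 87331 in activated WT, 21489 to 22586 in resting DKO and 31690 to 61817 in resting WT cDC2. Among these 23 genes, 12 rose on activation in DKO cells, where 5.82% of all genes rose, with a median difference of 1.66. In WT cells 1 of the 23 rose, where 3.97% of all genes rose, with a median of 0.87. Without resting WT replicate 2 the WT median was 1.60, and without replicate 1 it was 0.38. With the block, 23 rose in DKO and 12 in WT cells. These values under other settings were added after seeing the data. Whether the resting WT spread in this list has a part in the Stat2 values was not tested.

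**Figure D2:**
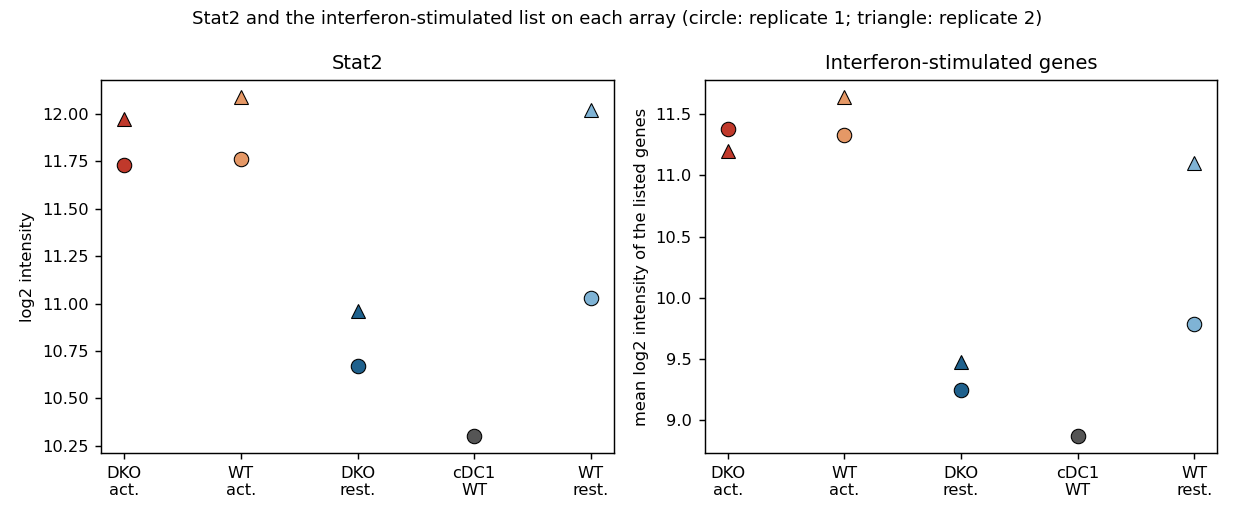
Log2 intensity of Stat2 (left) and the mean log2 intensity of 23 interferon-stimulated genes (right) on each array, by group, with circles for replicate 1 and triangles for replicate 2. Resting WT cDC2 replicate 2 sits at 12.02 for Stat2 and 11.10 for the list, near the activated arrays in both panels.

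Arrays with the same replicate number deviated together, and with that number as a block more genes passed. Then 6 of the 9 genes changed in DKO cells, all upward, where 38.0% of all genes changed (1393 up and 2687 down), and 5 changed in WT cells, all upward, where 35.3% of all genes changed (1222 up and 2569 down). The DKO genes added were Stat2 (limma adjusted p = 0.00715), Stat3 (adjusted p = 0.00217) and Stat5b (adjusted p = 0.0481). The WT genes added were Stat3 (adjusted p = 0.00368), Stat5a (adjusted p = 0.0316) and Socs1 (adjusted p = 0.0102). Stat4 and Stat6 passed in neither genotype under the block.

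**Figure D3:**
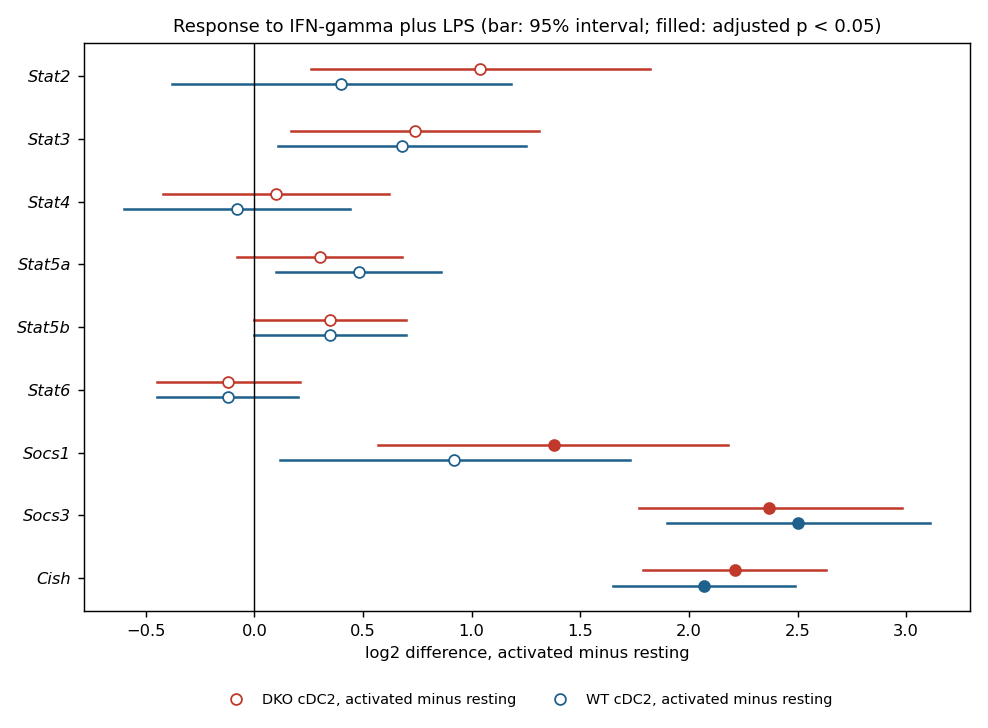
Log2 difference, activated minus resting, of each gene in DKO (red) and WT (blue) cDC2, with bars for the 95% interval and filled points for adjusted p below 0.05 in the fit of group means. Cish and Socs3 lie between 2.07 and 2.50, and the 6 STAT genes between -0.12 and 1.04.

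The rest of the pathway was read from lists of receptors, kinases, ligands, regulators and textbook targets, 101 genes in all, of which 78 were bright enough to test. In DKO cells 14 rose and 7 fell on activation, 26.9% of the 78 beside 13.7% of all genes tested, and in WT cells 11 rose and 5 fell, 20.5% beside 10.5%. Those counts rested on few arrays: with 1 array left out they were 9 to 21 genes in DKO and 2 to 16 in WT cells, and with the block they were 43 of 78 in DKO cells, where 38.0% of all genes passed, and 39 of 78 in WT cells, where 35.3% passed. The DKO count was 9 without resting DKO replicate 2 or activated DKO replicate 1, and the WT count was 2 without activated WT replicate 2, 5 without resting WT replicate 1 and 10 without activated WT replicate 1. Of 3 JAK kinases tested, 0 passed in either genotype without the block and 1, Jak2, passed in WT cells with it. Jak2, the kinase of the IFN-gamma and GM-CSF receptors, had a difference of 0.19 ± 0.15 in DKO (limma adjusted p = 0.43) and 0.43 ± 0.15 in WT cells (adjusted p = 0.108, or 0.0169 with the block).

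Among 8 ligands tested, 5 rose in DKO and 3 in WT cells (7 and 6 with the block), and 0 fell. Il6, the ligand of gp130 receptors that signal to STAT3, read 9.65 and 9.52 in activated DKO cells, against 5.47 and 5.04 in resting DKO cells, a difference of 4.33 ± 0.16 (limma adjusted p = 0.00024). In WT cells Il6 read 9.44 and 9.59 after activation, against 5.78 and 5.63 at rest, a difference of 3.81 ± 0.16 (adjusted p = 0.000518). Il12b, the shared subunit of IL-12 and IL-23, rose by 3.01 ± 0.29 in DKO and 2.27 ± 0.29 in WT cells. Il27 and Ebi3 encode the subunits of IL-27: Il27 rose by 1.18 ± 0.13 in DKO and 1.36 ± 0.13 in WT cells, and Ebi3 by 2.20 ± 0.43 in DKO cells, while with the block Ebi3 also rose in WT cells (1.78 ± 0.31, adjusted p = 0.00765). On the 4 resting cDC2 arrays Il6, at 5.04 to 5.78, and Ebi3, at 5.43 to 5.91, were under the brightness threshold. Their activation differences thus set a bright group against one under the threshold. Ebi3 and Osm, both among the DKO calls, passed the brightness filter only through activated cells. The filter itself therefore favoured rises in this count.

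Of 24 receptor genes tested, 4 rose and 6 fell in DKO cells, and 4 rose and 5 fell in WT cells. Over all genes tested, 13.7% changed in DKO and 10.5% in WT cells. With the block 8 receptor genes rose and 9 fell in DKO cells, and 10 rose and 8 fell in WT cells. Over all genes 38.0% and 35.3% then changed. Il15ra, which presents IL-15, rose by 2.68 ± 0.38 in DKO and 1.96 ± 0.38 in WT cells. Il10ra, the IL-10 receptor that signals to STAT3, rose by 2.31 ± 0.26 in DKO and 1.87 ± 0.26 in WT cells. Il12rb2, the IL-12 receptor chain that docks STAT4, read 9.77 and 10.08 in activated DKO cells, against 7.70 and 7.65 in resting DKO cells, and 9.34 and 10.04 in activated WT cells, against 7.80 and 8.04 in resting WT cells. Il6st, which encodes gp130, fell by 1.99 on the log2 scale in DKO and by 1.68 in WT cells. The other genes that fell in both genotypes, named here after their values were seen, were Ifngr1 (the IFN-gamma receptor, -1.22 ± 0.15 in DKO and -1.04 ± 0.15 in WT cells), Csf2rb (-1.50 ± 0.10 in DKO and -1.16 ± 0.10 in WT cells), Csf2rb2 (-1.41 ± 0.13 in DKO and -1.17 ± 0.13 in WT cells) and Il6ra (-0.78 ± 0.15 in DKO and -0.69 ± 0.15 in WT cells). Il7r fell by 1.01 in DKO cells and had -0.87 ± 0.23 in WT cells (adjusted p = 0.0607, or 0.00302 with the block). Csf2rb encodes the signalling chain shared by the GM-CSF, IL-3 and IL-5 receptors.

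Of 19 other negative regulators, 3 rose and 1 fell in DKO cells, and 2 rose and 0 fell in WT cells (7 up and 3 down in DKO and 5 up and 2 down in WT cells with the block). Pias2, a SUMO ligase of the family that inhibits STATs, rose by 1.80 ± 0.12 in DKO and 1.47 ± 0.12 in WT cells. Ptpn2, a phosphatase of JAK kinases and STATs, rose by 1.11 ± 0.16 in DKO and 0.85 ± 0.16 in WT cells. Usp18, which limits type I interferon signalling and also belongs to the interferon-stimulated list, rose by 1.82 ± 0.29 in DKO cells and had 1.15 ± 0.29 in WT cells (limma adjusted p = 0.0553, or 0.0205 with the block). Rnf7, a part of the ubiquitin ligase that SOCS proteins form, fell by 0.51 in DKO cells and, with the block, by 0.52 in WT cells (adjusted p = 0.00821). Of 9 STAT5 targets tested, 4 rose in DKO and 3 in WT cells (7 and 6 with the block): Il2ra by 1.46 ± 0.28 in DKO and 1.47 ± 0.28 in WT cells, Bcl2l1 by 1.05 ± 0.16 in DKO and 1.01 ± 0.16 in WT cells, Pim1 by 0.86 ± 0.16 in DKO and 0.79 ± 0.16 in WT cells, and Osm by 0.81 ± 0.19 in DKO cells. Osm was dim, at 5.91 and 6.07 in activated DKO cells, against 5.31 at most in resting DKO cells, and passed the brightness filter only through activated DKO cells. With the block it also rose in WT cells (0.58 ± 0.14, adjusted p = 0.0227). Bcl2l1 was also the 1 gene of 10 STAT3 targets that passed without the block, beside 4 in each genotype with it. These STAT3 target counts were near the shares of all genes that changed. Among 3 STAT6 targets and 6 other STAT partners, 0 passed without the block. With it the STAT partner Nmi passed in DKO (1.03 ± 0.24, adjusted p = 0.0182) and WT cells (0.82 ± 0.24, adjusted p = 0.0403), and the STAT6 target Ccl22 in DKO cells (0.34 ± 0.09, adjusted p = 0.0221).

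Whether loss of BATF and BATF3 changed the activation response was tested by an interaction term. Of the 9 genes 0 passed, and 0 of 10728 genes passed by limma, with or without the block, a share of 0%, while 121 genes (1.13%) and 0 of the 9 had an unadjusted p below 0.05. The largest estimates were 0.64 ± 0.46 for Stat2 and 0.45 ± 0.47 for Socs1, and the others were within 0.19 of 0. The 95% intervals ran over -0.47 to 1.74 for Stat2 and -0.69 to 1.59 for Socs1, so larger as well as smaller responses in DKO cells remain within the error. The Stat2 estimate rested on the resting WT arrays: it was 0.14 without replicate 2 and 1.14 without replicate 1, and with the block its interval ran over 0.01 to 1.27 (adjusted p = 1).

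Without the block, 0 of the 9 genes passed (limma) in the comparison of DKO with WT cDC2, at rest, after activation or as the mean of both states, where 0.0186% of all genes passed in each. At an unadjusted p below 0.05 there was 1 of the 9 genes at rest (6.59% of all genes), 2 after activation (5.95% of all) and 2 in the mean of both states (10.8% of all). Stat4 was among them each time, and Cish was the other gene after activation and in the mean. The knocked-out genes did not pass either. In the mean of both states Batf had -2.21 ± 0.39 (limma adjusted p = 0.126) and Batf3 -1.66 ± 0.32 (adjusted p = 0.148). Both passed there with the block (adjusted p = 0.0161). A gene that did not pass may therefore still differ between the genotypes.

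Stat4 was higher on every DKO array than on any WT cDC2 array. After activation it read 10.36 and 10.67 (log2 intensity) in DKO cells, against 9.69 and 9.87 in WT cells. At rest Stat4 read 10.21 and 10.62 in DKO cells, against 9.63 and 10.09 in WT cells. The 4 DKO and 4 WT arrays thus did not overlap, which held in that direction for 1.38% of all genes tested, though resting DKO replicate 1, at 10.21, was close to resting WT replicate 2, at 10.09. The log2 difference was 0.74 ± 0.22 after activation (limma adjusted p = 0.645), 0.55 ± 0.22 at rest (adjusted p = 0.727) and 0.64 ± 0.15 as the mean of both states, 1.56-fold with a 95% interval of 0.28 to 1.01 (adjusted p = 0.221). With the replicate number as a block the mean difference of 0.64 ± 0.07 passed (adjusted p = 0.00823, where 5.58% of all genes changed and 2.98% were higher), and so did the activated one, 0.74 ± 0.10 (adjusted p = 0.0394, where 0.569% of all genes changed and 0.280% were higher). The resting one, 0.55 ± 0.10, did not pass (adjusted p = 0.0727, where 0.736% of all genes changed). With the block and any 1 of the 8 cDC2 arrays left out, an alternative chosen after seeing the data, the mean difference was 0.59 to 0.70 and passed each time (adjusted p = 0.0262 to 0.0462). The activated difference was then 0.63 to 0.85 and passed in none (adjusted p = 0.0668 to 0.248), whichever array was missing.

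T and NK cells also express Stat4, and their markers were read beside it. Of 9 T cell markers on the array, 8 were under the brightness threshold on every array, with Cd3e at 6.03 to 6.21 as the exception. The T list summed on the linear scale to 262 to 275 in activated DKO, 278 to 283 in activated WT, 262 to 267 in resting DKO and 268 to 276 in resting WT cDC2. The NK list summed to 352 to 385 in activated DKO, 284 to 425 in activated WT, 237 to 280 in resting DKO and 203 to 271 in resting WT cDC2. Of 8 NK markers, Ncr1 was at most 4.36 on any array, under the threshold, while Klrk1 and Prf1 passed the brightness filter. Prf1 read 6.09 to 6.18. Klrk1 read 7.63 and 7.41 in activated DKO cells, against 6.61 and 7.91 in activated WT cells. At rest Klrk1 read 5.83 and 6.49 in DKO cells, against 4.87 and 6.47 in WT cells. The median DKO minus WT difference of these 2 genes was 0.15 after activation (2 positive) and 0.23 at rest (1 positive, 1 negative). Most genes of both lists were under the brightness threshold, so the sums say little about the amount of either cell type. The part of T or NK cells in the Stat4 values was not tested. Other lists leaned downward in DKO cells: in the mean of both states the median DKO minus WT difference was -0.53 for 7 macrophage genes (5 with an unadjusted p below 0.05), -0.49 for 5 monocyte genes (3 such) and -0.39 for 5 plasmacytoid dendritic cell genes (2 such), with 0 past the adjusted threshold. Summed on the linear scale, the macrophage list gave 911 to 989 in activated DKO, 1053 to 1337 in activated WT, 1500 to 1812 in resting DKO and 1618 to 1974 in resting WT cDC2. The monocyte list gave 961 to 1319 in activated DKO, 1201 to 1735 in activated WT, 1121 to 1551 in resting DKO and 1392 to 2285 in resting WT cDC2. For the plasmacytoid list the sums were 3683 to 5818 in activated DKO, 3736 to 6843 in activated WT, 1486 to 3484 in resting DKO and 2174 to 6430 in resting WT cDC2. The resting WT plasmacytoid sum was 2174 on replicate 1 and 6430 on replicate 2, the array with the high interferon-stimulated mean. Whether this sum follows the number of such cells was not tested. The part of these 3 lists in the Stat4 values was not tested either.

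Cish had a DKO minus WT difference of 0.43 ± 0.17 after activation (limma adjusted p = 0.809), 0.30 ± 0.17 at rest (adjusted p = 0.934) and 0.36 ± 0.12 in the mean of both states (adjusted p = 0.334, or 0.13 with the block). Both activated DKO arrays, at 8.04 and 8.08, were above both activated WT arrays, at 7.46 and 7.79, a separation in that direction shared by 16.4% of all genes. At rest its values, 5.48 to 6.06 over both genotypes, lay around the brightness threshold. Stat2 had -0.71 ± 0.32 at rest (adjusted p = 0.806), which was -0.21 without resting WT replicate 2 and -1.21 without replicate 1. All 23 interferon-stimulated genes had a negative difference at rest, where 4901 of all 10728 genes tested did, with a median of -0.98 and 0 past the threshold. This median includes resting WT replicate 2: the list averaged 11.10 on that array and 9.79 on replicate 1, against 9.25 and 9.48 on the resting DKO arrays. For Socs1, Socs3, Stat3, Stat5a, Stat5b and Stat6 the difference was at most 0.46 in size in each state. Their intervals still leave room for moderate shifts: for Socs1 after activation the estimate was 0.46 ± 0.33.

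**Figure D4:**
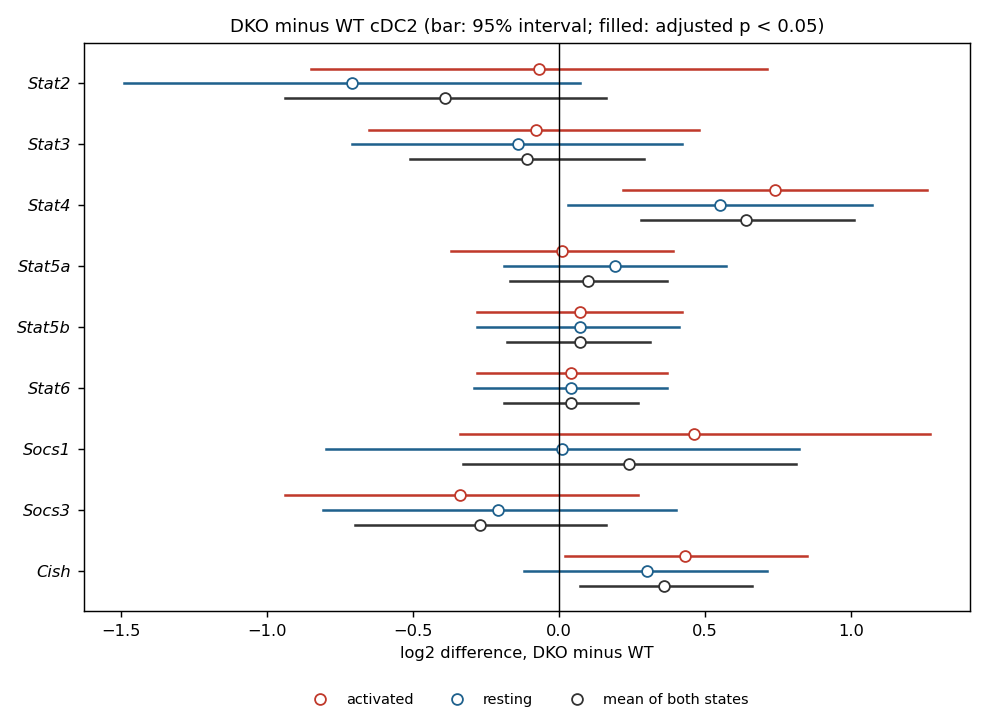
Log2 difference, DKO minus WT cDC2, of each gene after activation (red), at rest (blue) and as the mean of both states (black), with bars for the 95% interval. No point is filled, since none passed adjusted p below 0.05 in the fit of group means, and the Stat4 estimates lie at 0.55 to 0.74.

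In the wider pathway 0 of 78 genes passed between DKO and WT cells without the block. With it, 4 passed in the mean of both states, 5.13% beside 5.58% of all genes, which is no more than the background share: Ccl22, a chemokine and STAT6 target, at 0.32 ± 0.06 (limma adjusted p = 0.0376), Hif1a at -0.44 ± 0.07 (adjusted p = 0.0208), the IL-7 receptor gene Il7r at -0.48 ± 0.08 (adjusted p = 0.0257) and Mgl2, a lectin also on the cDC2 marker list, at -0.91 ± 0.17 (adjusted p = 0.0369). Mgl2 was under the brightness threshold on all 4 DKO arrays, at 4.95 to 5.57, and entered the test only through WT cDC2.

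Resting cDC1, the subset specialised in cross-presentation, carried less RNA of 4 STAT genes than resting cDC2. Stat5b, Stat5a, Stat4 and Stat6 were lower in cDC1, 4 of the 9 genes, where 13.6% of all genes tested differed and 6.56% were lower (limma). The median cDC1 minus cDC2 difference was -0.75 for the 9 genes and -0.01 over all genes. With a single cDC1 array, its error is borrowed from the cDC2 replicates, and a peculiarity of this 1 sample and a property of cDC1 cannot be told apart.

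Stat5b read 8.32 in cDC1, against 9.56 and 9.68 in WT cDC2. The difference was -1.31 ± 0.18 (limma adjusted p = 0.00771), 2.47-fold lower, and it passed without any 1 cDC2 array (-1.36 to -1.25). Stat5a read 9.49 in cDC1, against 10.50 and 10.76 in WT cDC2, a difference of -1.14 ± 0.19 (adjusted p = 0.0147) that became -1.01 without resting WT replicate 2 (adjusted p = 0.0539). Stat5b and Stat5a were thus lower by similar amounts. They lie next to each other on chromosome 11, followed by Stat3 (gene order in GRCm38.p6), and their sequences are closely alike. How far the probes of one detect RNA of the other was not tested.

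Stat4 read 8.64 in cDC1, against 9.63 and 10.09 in WT cDC2. Its difference of -1.22 ± 0.26 (limma adjusted p = 0.0308) lost the call without resting WT replicate 2 (-1.0, adjusted p = 0.0876) and without each activated array (adjusted p = 0.0506 for the DKO and 0.0565 for the WT arrays). Stat6 read 10.07 in cDC1, against 10.62 and 10.88 in WT cDC2. Its difference of -0.68 ± 0.17 (adjusted p = 0.0441) was past the threshold only with all arrays, since leaving out any 1 of the 8 cDC2 arrays gave -0.82 to -0.55 with adjusted p = 0.0553 to 0.121. Without resting WT replicate 2, Stat5b was the 1 gene of the 9 that still passed.

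Stat2 read 10.30 in cDC1, against 11.03 and 12.02 in WT cDC2, a difference of -1.23 ± 0.40 (limma adjusted p = 0.0939). It was -1.72 and passed without resting WT replicate 1 (adjusted p = 0.0239), and was -0.73 without replicate 2. The interferon-stimulated list averaged 8.87 in cDC1, against 9.79 and 11.10 on resting WT cDC2 replicates 1 and 2. Its median difference of -1.67 includes that replicate 2. The part of this list in the Stat2 value was not tested. Stat3 read 10.62 in cDC1, against 11.18 and 11.56 in WT cDC2 (-0.75 ± 0.29, adjusted p = 0.141). For the feedback genes the values were closer: Socs1 read 6.20 in cDC1, against 5.97 and 6.46 in WT cDC2, Socs3 read 6.86, against 6.92 and 7.12, and Cish read 5.51, against 5.63 and 5.48. Their differences were -0.16 to -0.01 with adjusted p of 0.794 to 0.993. In all, 7 of the 9 genes were lower in cDC1 than on both WT cDC2 arrays, a separation shared by 40.0% of all genes, and the cDC1 array was below all 8 cDC2 arrays for each of the 6 STAT genes, as it was for 22.0% of all genes.

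**Figure D5:**
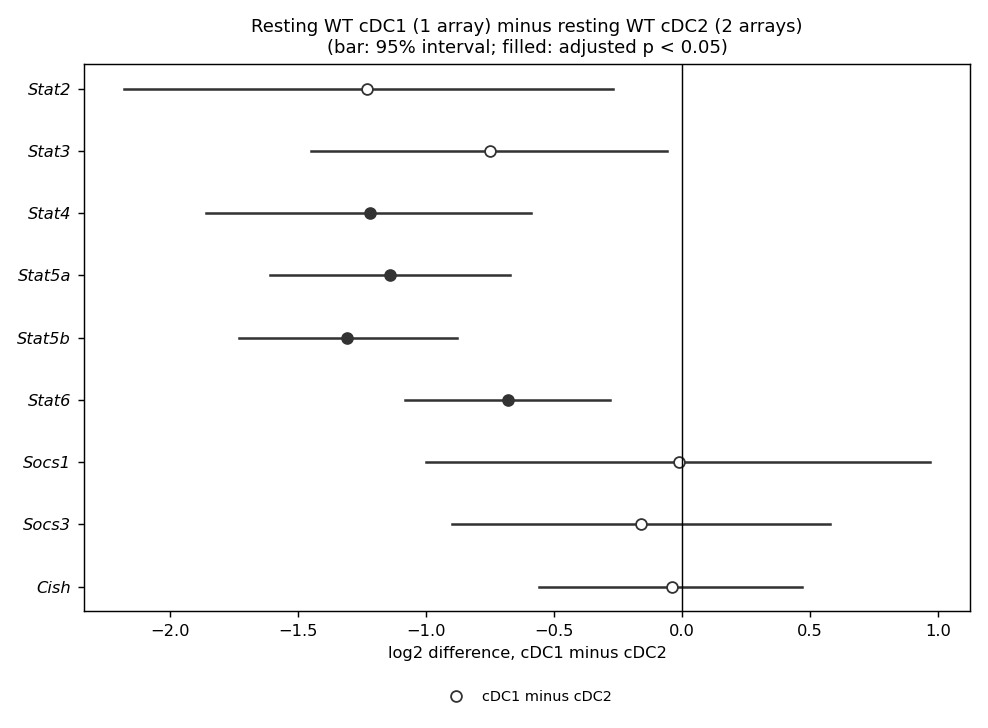
Log2 difference, resting WT cDC1 minus resting WT cDC2, of each gene, with bars for the 95% interval and filled points for adjusted p below 0.05. The 6 STAT genes lie between -1.31 and -0.68, with Stat4, Stat5a, Stat5b and Stat6 filled, and the 3 feedback genes lie at -0.16 to -0.01.

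Of the 78 pathway genes tested, 4 were higher and 8 lower in cDC1 than in cDC2, 15.4% beside 13.6% of all genes (7.08% higher and 6.56% lower), so the pathway's share was near that of all genes. With 1 cDC2 array left out, 8 to 11 passed. Lower in cDC1 were Jak2 (-1.03 ± 0.18, limma adjusted p = 0.0158), the IL-2 receptor gene Il2ra (-3.72 ± 0.35), Il7r (-3.12 ± 0.28), the IL-1 receptor antagonist Il1rn (-3.24 ± 0.32), Bcl2l1 (-0.99 ± 0.20), cyclin gene Ccnd2 (-3.20 ± 0.63), Bcl6 (-0.73 ± 0.17) and Mgl2 (-1.78 ± 0.34), which at 4.36 in cDC1 was under the brightness threshold there. Il2ra, Bcl2l1, Ccnd2 and Bcl6 are the 4 of 9 textbook STAT5 targets that were lower, and 2 of the 9 were lower without resting WT replicate 2. Higher in cDC1 were Il12b (3.09 ± 0.35), Ifngr1 (1.51 ± 0.19), Il6ra (0.72 ± 0.18) and Eloc (0.68 ± 0.12), a part of the ubiquitin ligase used by SOCS proteins.

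Across the 5 groups, the order of the group means differed between genes. For Stat2, Stat3, Stat4, Stat5a, Stat5b and Stat6 the cDC1 array was lowest. For Stat2 and Stat3 the activated groups came highest and overlapped each other, followed by resting WT and resting DKO cDC2, which overlapped for Stat3 but not for Stat2, where resting WT also overlapped the activated groups. For Stat4 both DKO groups were highest and overlapped, and both WT cDC2 groups came next and overlapped. For Stat5a, Stat5b and Socs1 both activated groups were highest and overlapped, and the resting DKO and WT cDC2 groups overlapped below them. Stat6 varied least, with group means spanning 0.72 and all cDC2 arrays between 10.51 and 10.88. Socs3 and Cish had the widest spans, 2.71 and 2.55, with both activated groups above all resting groups, and the activated groups overlapped for Socs3 but not for Cish.

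For the 8 genes whose group means spanned at least 1 log2 unit, the tested genes with the closest pattern over the 9 arrays were found by the root mean square distance of centred log2 values. Stat5a and Stat5b were each other's closest, at 0.080, followed for both by Anxa2 (0.109 to Stat5a and 0.107 to Stat5b). Stat2 lay closest to Slfn10-ps (0.154), Ifi35 (0.156) and Trim14 (0.166), of which Ifi35 is on the interferon-stimulated list. For Stat3 the closest was Pold3 (0.096), for Stat4 Fblim1 (0.120) and for Socs1 Kctd10 (0.154). Socs3 was closest to Zfp961 (0.172), with the next gene, the hexokinase gene Hk2, at 0.243. Nearest to Cish were Enc1 (0.209), Tnfsf9 (0.244) and the IL-12 receptor gene Il12rb2 (0.265). These distances describe 9 arrays that share groups and replicate numbers.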

How the data were processed

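RNA of 9 samples was measured on Affymetrix arrays. Affymetrix Expression Console and RMA made the values. RMA gives each transcript cluster a background-corrected, normalised value, and these names come per the submitters' processing notes. The deposited values were intensity values on a linear scale, with array medians of 53.4 to 55.6, and log2 was taken here, whereas the design had foreseen a log2 table. RMA brings arrays to a shared distribution, so a change in total RNA is not visible. Precision is limited by the number of arrays.

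Of 28853 clusters, 21789 carried 1 gene symbol, and the cluster of highest mean was used for each of 19938 genes. Tests covered the 10728 genes whose mean in some group was over 5.94 on the log2 scale, the median over such clusters. Differences were fitted with limma 3.58.1 in R 4.3.3 (5 group means, 9 arrays, 4 residual degrees of freedom, two-sided), and p-values were Benjamini-Hochberg adjusted across all genes tested, with a threshold of 0.05. The script was tested on simulated data. Differences are given with their standard error (SE).

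Replicate numbers come from the sample titles. In each of the 6 comparisons of cDC2 groups, arrays of the same number deviated together (correlations of 0.45 to 0.69 across genes), so values fitted with this number as a block are given where it changes a call for one of the 9 genes or a pathway gene named in the comparison, and pathway lists get their counts under it. Other alternatives were another normalisation, other filters, an offset of 16 before log2 and leaving out each array.

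The 9 genes and all lists were chosen with earlier results of these data known, and the lists support no finding of their own. All 9 genes are named in each comparison, and of each pathway list up to 4 genes past the threshold with the largest change, or up to 2 of smallest p where none passed, as far as they bear on the 9 genes. Promoters came from RefSeq (GRCm38.p6).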

Additional observations from a re-analysis of the deposited data

How the results depend on the processing

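The limits are 2 arrays a cDC2 group, 1 cDC1 array and replicates of unstated origin. With the replicate number as a block, the count of the 9 genes past the threshold was 6 in DKO activation (3 without it), 5 in WT activation (2 without it) and 1 (Stat4) for DKO against WT after activation and in the mean of both states (0 without it). Among the 78 pathway genes it was 43 (21 without it) in DKO activation, 39 (16 without it) in WT activation and 4 (0 without it) in the mean genotype difference. Among the cDC2 comparisons the block changed no other count of these genes, and it was not fitted for cDC1 against cDC2, which has 1 array on one side. With 1 array left out, the counts of the 9 genes were 2 to 3 in DKO activation, 1 to 2 in WT activation, 1 to 4 for cDC1 against cDC2 and 0 in the genotype and interaction comparisons. For the pathway genes they were 0 in the genotype and interaction comparisons, 9 to 21 in DKO activation, 2 to 16 in WT activation and 8 to 11 for cDC1.

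Over all genes tested, the share past the threshold with 1 array left out was 2.02% to 11.9% in DKO activation (13.7% with all), 0.567% to 6.49% in WT activation (10.5% with all) and 7.44% to 10.7% for cDC1 against cDC2 (13.6% with all). Over these genes, quantile normalisation gave 441 higher and 481 lower in WT activation, against 426 and 705 in the values as deposited. Of the single-gene values under all alternatives, 979 kept direction and side of the threshold, 23 kept direction but lost the call, 19 gained it and 56 uncalled values changed sign. No called value changed sign. The cause of these shifts was not tested.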
